A study of Mus musculus with 12 samples.

Results

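The mRNA levels of 10 genes that act in the deadenylation and decapping of maternal mRNA were measured, Btg4, Cnot1, Cnot6, Cnot6l, Cnot7, Cnot8, Zfp36l2, Pan2, Dcp1a and Dcp2. They were chosen by name, matched to their Ensembl identifiers in GENCODE mouse release 21 (GRCm38), and are 10 of the 55573 genes counted. All 10 were found in all 12 libraries, and all 10 passed the filter on low counts in both fits described below. The libraries are poly(A) RNA-seq of single mouse oocytes at the germinal vesicle (GV) stage, fully grown cells held in meiotic prophase with an intact nucleus. The methods give the source as a B6D2_F1 female at 12 weeks of age, and oocytes were released in M2 medium with milrinone, an inhibitor that holds the prophase arrest. Whole oocytes were amplified for 10, 14 or 18 cycles (2 libraries each, from 6 oocytes), and 1/2, 1/4 or 1/8 of an oocyte lysate was amplified for 18 cycles (2 libraries each). The 6 fraction libraries came from 2 further oocytes, so fractions share oocytes, and the labels do not say which libraries do. The ERCC spike-in mix, a set of synthetic RNAs, was added in equal amount to each lysis, and its reads were used as a 2nd scale. That scale differed between whole oocytes. Counts on genes per ERCC count were 323 and 360 at 10 cycles, 347 and 354 at 14 and 1873 and 1158 at 18.

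A growing oocyte stores mRNA for the egg and the early embryo, and much of this store is held with short poly(A) tails until meiosis resumes. The CCR4-NOT complex shortens the tail, after which the DCP1-DCP2 enzyme removes the cap and the body of the mRNA is degraded. BTG4 and ZFP36L2 bring CCR4-NOT to its targets, and PAN2, with PAN3, forms a separate deadenylase. GV oocytes therefore hold the mRNAs of the decay machinery before most of the maternal store is removed, and poly(A) selection records an mRNA only as far as its tail is captured.

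The oocyte label was checked against marker genes. The 10 oocyte markers (Zp1, Zp2, Zp3, Gdf9, Bmp15, Nlrp5, Ooep, Oosp1, Figla and Mos) were detected in all 12 libraries. Together they took 24089.8 and 21537 CPM (each count scaled by the gene counts of its library) after 10 cycles, 23547 and 25106 after 14 and 7130.4 and 5983 after 18. Among the fractions the 1/2 libraries summed to 9309 and 8778, those of 1/4 to 12975.5 and 14076, and those of 1/8 to 19884 and 19416. Gdf9, an oocyte growth factor, had the highest CPM of them in all libraries but replicate 1 of 1/2 and replicate 2 of 1/8, where Ooep did, and reached 5874 CPM. The 8 markers of granulosa and cumulus cells (Fshr, Foxl2, Cyp19a1, Inhba, Amh, Kitl, Cyp11a1 and Has2) summed to between 12.9 and 118 CPM. Fshr, the FSH receptor that defines granulosa cells, did not exceed 1.05 CPM in any library. The highest single value was that of Cyp11a1, 66.6 CPM in replicate 1 at 10 cycles, and Cyp19a1, the aromatase of granulosa cells, was found in all 12 libraries at between 5.97 and 46.1 CPM.

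Counts on genes were 11597144 and 9189672 after 10 cycles, 12349577 and 13806199 after 14 and 3017069 and 1706478 in the whole oocytes after 18. The fractions had 4024670 and 3598549 (1/2), 4027907 and 5049518 (1/4), and 11404262 and 1702062 (1/8). Reads copied from the same molecule cannot be told apart, so counts overstate the number of molecules. Zfp36l2, the least abundant member at 10 and 14 cycles, still had between 18 and 158 counts in each library. Depth, oocyte and preparation cannot be told apart from cycle number, since the whole oocytes at 18 cycles were different cells with fewer counts than those at 10 and 14 cycles.

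Levels between genes were compared in the whole oocytes at 10 and 14 cycles, as mean CPM per kb of exonic sequence. Btg4, the adaptor that couples CCR4-NOT to maternal mRNA, stood highest at 621 CPM per kb and ranked 42 of 21903 protein-coding genes. Dcp1a, the activator of the decapping enzyme, was next at 118 CPM per kb and rank 331. The catalytic subunits Cnot7, Cnot6l and Cnot8 followed at 63.6, 62.4 and 58.2 CPM per kb, and the values of these 3 genes overlapped between libraries. The decapping enzyme Dcp2 was at 22.6 and Pan2, the catalytic subunit of PAN2-PAN3, at 20.7 CPM per kb, again with overlapping libraries. Cnot1, the scaffold of CCR4-NOT, was at 11.2 and the catalytic subunit Cnot6 at 7.50 CPM per kb. Zfp36l2, which binds AU-rich elements and recruits CCR4-NOT, was lowest at 1.75 CPM per kb and rank 9131. The exonic length counts every annotated isoform, and for Cnot1 it is 17169 bases against 8390 for the longest transcript, so its level per kb is a low estimate. The same length is 2556 against 1486 bases for Btg4 and 8472 against 5051 for Pan2. Per kb of the longest transcript, a length chosen after seeing the data, Pan2 was at 34.6, Cnot1 at 22.9 and Dcp2 at 22.8, so the order of these 3 genes depends on the length used.

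Btg4 (ENSMUSG00000032056, GRCm38 chromosome 9 from 51060901 to 51119875, plus strand) had 1479.8 and 1514 CPM after 10 cycles, 1787 and 1569.9 after 14 and 422 and 826 after 18. Both libraries at 18 cycles were below all 4 at 10 and 14 cycles, and they were also far from each other. In the fractions Btg4 had 877 and 783 CPM (1/2), 937 and 653 (1/4), and 1159 and 1509 (1/8). The 1/8 libraries were above every other library at 18 cycles, and replicate 2 reached the level of the oocytes at 10 cycles. Btg4 was the most abundant member by CPM in each of the 12 libraries.

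Cnot1 (ENSMUSG00000036550, chromosome 8 from 95719451 to 95807464, minus strand) had 214 and 167 CPM after 10 cycles, 184 and 201 after 14 and 79.9 and 74.4 after 18. The pair at 18 cycles lay close together and below all of the shallower amplifications. In the fractions it had 68.3 and 119 CPM (1/2), 138 and 114 (1/4), and 167 and 162 (1/8). Only 1 of these, replicate 1 of 1/2, was below the whole oocytes at 18 cycles.

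With median-ratio size factors, none of the catalytic subunits Cnot6l, Cnot6, Cnot7 and Cnot8 passed the test between 18 and 10 cycles given further on. Cnot6l, the CCR4-type nuclease that predominates in oocytes, had 687 and 861 CPM after 10 cycles, 515 and 514 after 14 and 244 and 561 after 18. Its replicates at 18 cycles lay on either side of both libraries at 14 cycles. Its paralog Cnot6 had 47.0 and 54.1, then 46.1 and 51.1, then 26.5 and 29.9 CPM. Both libraries at 18 cycles were below the other 4, but the difference did not pass the test given further on. Within each library Cnot6l exceeded Cnot6 per kb, by a ratio between 5.79 and 12.03.

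Cnot7, a CAF1-type nuclease bound directly by BTG4, had 367 and 387 CPM after 10 cycles, 374 and 355 after 14 and 210.1 and 268 after 18. In 1/8 it had 392 and 564 CPM, above each of the whole oocytes. Its paralog Cnot8 had 156 and 166, then 156 and 136, then 138 and 159 CPM. Of the members Cnot8 varied least, with a ratio of 1.58 between its highest and lowest library, and its groups at 10, 14 and 18 cycles overlapped. The ratio of Cnot7 to Cnot8 per kb was between 1.05 and 1.18 at 10 and 14 cycles and 0.690 and 0.765 in the whole oocytes at 18 cycles. In the fractions it was 0.697 and 0.838 (1/2), 0.824 and 0.838 (1/4), and 0.889 and 1.29 (1/8), the last above every library at 10 and 14 cycles.

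Pan2 had 194 and 178 CPM after 10 cycles, 179 and 148 after 14 and 50.7 and 95.5 after 18. Its lowest library was replicate 1 of 1/2, at 44.0 CPM, and the 1/8 libraries had 111 and 121. No library at 18 cycles reached the levels at 10 and 14 cycles.

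Zfp36l2 (ENSMUSG00000045817, chromosome 17 from 84183931 to 84187947, minus strand) ran the other way. It had 5.78 and 4.90 CPM after 10 cycles, 6.80 and 7.24 after 14 and 37.8 and 38.1 after 18. Among the fractions it had 11.4 and 14.5 (1/2), 39.2 and 25.5 (1/4), and 9.47 and 10.6 (1/8). The whole oocytes at 18 cycles and the 1/4 libraries were high, while the 1/2 and 1/8 libraries lay between them and the shallower amplifications, so the level did not follow the order of dilution. Its counts were 67 and 45 at 10 cycles, 114 and 65 at 18 cycles, and 108 and 18 in 1/8.

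The decapping genes diverged from each other. Dcp1a had 1076 and 904 CPM after 10 cycles, 970.2 and 924 after 14 and 392 and 595 after 18. Dcp2 had 205 and 174, then 215 and 191, then 322 and 332 CPM. The Dcp1a libraries at 18 cycles were below all of the others from whole oocytes, and the Dcp2 libraries were above them. The ratio of Dcp1a to Dcp2 per kb, which needs no scaling between libraries, was between 4.78 and 5.55 at 10 and 14 cycles and 1.29 and 1.90 in whole oocytes at 18 cycles. The fractions gave 2.45 and 2.52 (1/2), 2.68 and 2.94 (1/4), and 5.04 and 3.56 (1/8).

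**Figure D1:**
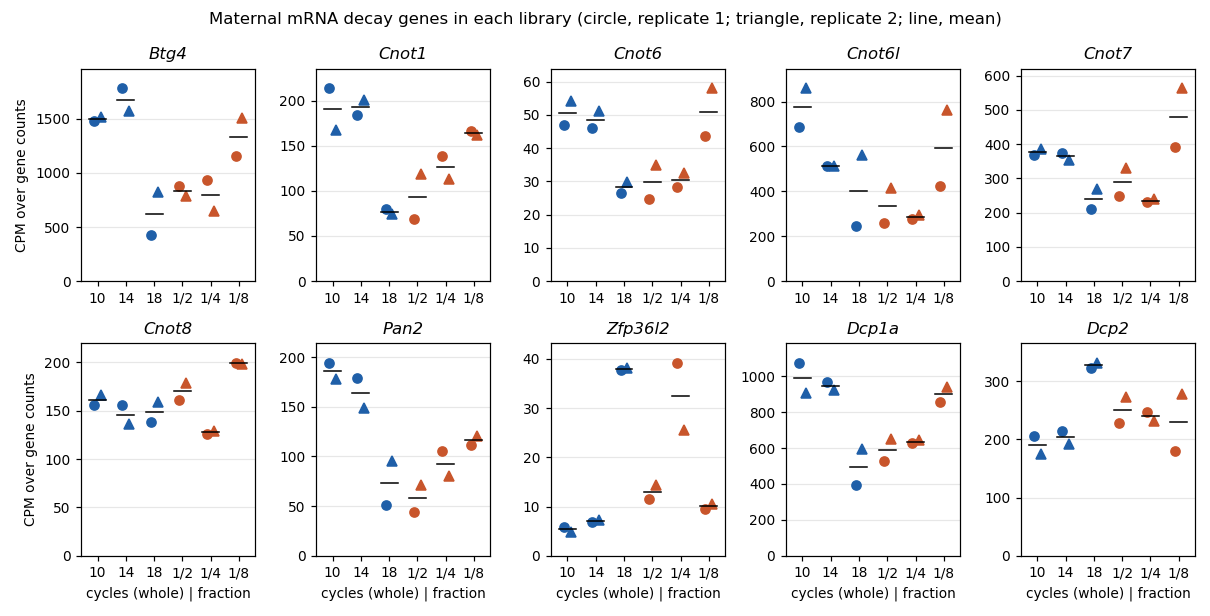
CPM over gene counts (linear axis from 0) of the 10 genes in each library; the horizontal axis gives the amplification cycles of whole oocytes (blue) and the fraction of an oocyte at 18 cycles (orange), points are libraries and lines are means of 2. Btg4, Cnot1, Cnot6, Cnot7, Pan2 and Dcp1a were lower in whole oocytes at 18 cycles than at 10 or 14 cycles in both libraries, and Zfp36l2 and Dcp2 were higher. Of these genes only Cnot1, Zfp36l2 and Dcp2 passed the test given below, as did 23.1% of all genes between 18 and 10 cycles. The share of all genes that separate in this way was not counted.

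The whole oocytes at 10, 14 and 18 cycles (6 libraries) were compared by edgeR's quasi-likelihood test, with median-ratio size factors over all genes and Benjamini-Hochberg adjustment over the 17532 genes tested. A gene was called at an adjusted p under 0.01. Between 14 and 10 cycles 0 of the 10 members were called, as were 0% of all genes tested. At an unadjusted p under 0.05 the number of members was also 0 (2.93% of all genes), and DESeq2 called 0 members (0.0057% of all genes in each direction). The largest difference was that of Cnot6l, at -0.63 on the log2 scale with a standard error (SE) of 0.36.

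Between 18 and 10 cycles 3 of the 10 members were called. Of these 1 was lower, where 10.9% of all genes were called lower, and 2 were higher, where 12.2% of all genes were called higher. In a fit of the 9073 genes with at least 10 counts in every library, 18.2% were called lower and 27.4% higher, and Pan2 (-1.09) was called in addition. In normalized counts Cnot1 went from 1202 ± 163 to 583 ± 21.1 (mean ± SD of 2 libraries), for a log2 fold change of -1.05 (SE 0.20, adjusted p = 0.00234 by edgeR's quasi-likelihood test). Zfp36l2 rose from 33.6 ± 2.64 to 287 ± 26.4, a log2 fold change of 3.08 (SE 0.32, adjusted p = 0.000107, edgeR). Dcp2 rose from 1195 ± 91.0 to 2475 ± 266, a log2 fold change of 1.05 (SE 0.20, adjusted p = 0.00216, edgeR). Pan2 at -1.09 (SE 0.31), Btg4 at -0.98 (SE 0.32) and Dcp1a at -0.73 (SE 0.25) did not pass, with adjusted p = 0.0176, 0.0332 and 0.0463 by edgeR, and their replicates at 18 cycles were far apart. DESeq2 called 5 members, Btg4 (-0.98) and Pan2 (-1.08) in addition, of which 3 were lower (13.9% of all genes) and 2 higher (15.5% of all genes). The other catalytic subunits lay between -0.66 (Cnot6l) and 0.14 (Cnot8).

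These calls are changes of composition, and under ERCC scaling the direction of Cnot1 turned while Zfp36l2 and Dcp2 kept theirs and their calls. The median log2 fold change over all genes tested was -0.30, and Cnot1 differed from it by -0.75. With ERCC size factors, a scaling chosen after seeing the data, the median of all genes was 1.96 and 7 members were called higher and 0 lower, where 47.6% of all genes were called higher and 0% lower. On that scale Cnot1 was at 1.22 and did not pass, Dcp2 was at 3.29 and Zfp36l2 at 5.34. Relative to the median of all genes, 7 of the 10 members were below it under either scaling, and Zfp36l2, Dcp2 and Cnot8 were above it. Single libraries mattered too. Without replicate 1 at 10 cycles, Cnot1 (-0.91) and Dcp2 (1.12) did not pass, where 5.72% of all genes were called lower and 5.79% higher. Without replicate 2 at 10 cycles Dcp2 (0.97) did not pass, where 5.37% of all genes were called higher. Without replicate 2 at 18 cycles 5 members were called lower, where 11.2% of all genes were, namely Btg4 (-1.65), Cnot1 (-1.19), Cnot6l (-1.49), Pan2 (-1.70) and Dcp1a (-1.16).

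Between 18 and 14 cycles 3 members were again called, in a comparison that shares the libraries at 18 cycles. Of the 10 members 1 was lower and 2 were higher, against 10.8% and 12.5% of all genes. In the fit of genes with at least 10 counts in every library these shares were 17.3% and 27.5%. Cnot1 was at -1.03 (SE 0.20, adjusted p = 0.00253 by edgeR's quasi-likelihood test), Zfp36l2 at 2.72 (SE 0.31, adjusted p = 0.000156) and Dcp2 at 0.98 (SE 0.20, adjusted p = 0.00311). Btg4 was at -1.11 (SE 0.32, adjusted p = 0.0191, edgeR) and did not pass, while DESeq2 called 4 members, Btg4 in addition, of which 2 were lower (13.8% of all genes) and 2 higher (15.6% of all genes). Cnot6l was at -0.03 (SE 0.36). Without replicate 1 or replicate 2 at 14 cycles neither Cnot1 (-1.08 and -0.98) nor Dcp2 (1.08 and 0.89) passed, where 5.62% and 5.34% of all genes were called lower and 5.84% and 5.68% higher. Without replicate 1 at 18 cycles Cnot1 (-0.99) did not pass (6.86% of all genes lower), and without replicate 2 at 18 cycles Btg4 (-1.78), Pan2 (-1.48) and Dcp1a (-1.06) were also called lower (10.8% of all genes). With ERCC size factors the median of all genes was 1.97 and 8 members were called higher, where 47.9% of all genes were. On that scale Cnot1 turned to 1.24 and did not pass, while Zfp36l2 and Dcp2 kept their calls.

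**Figure D2:**
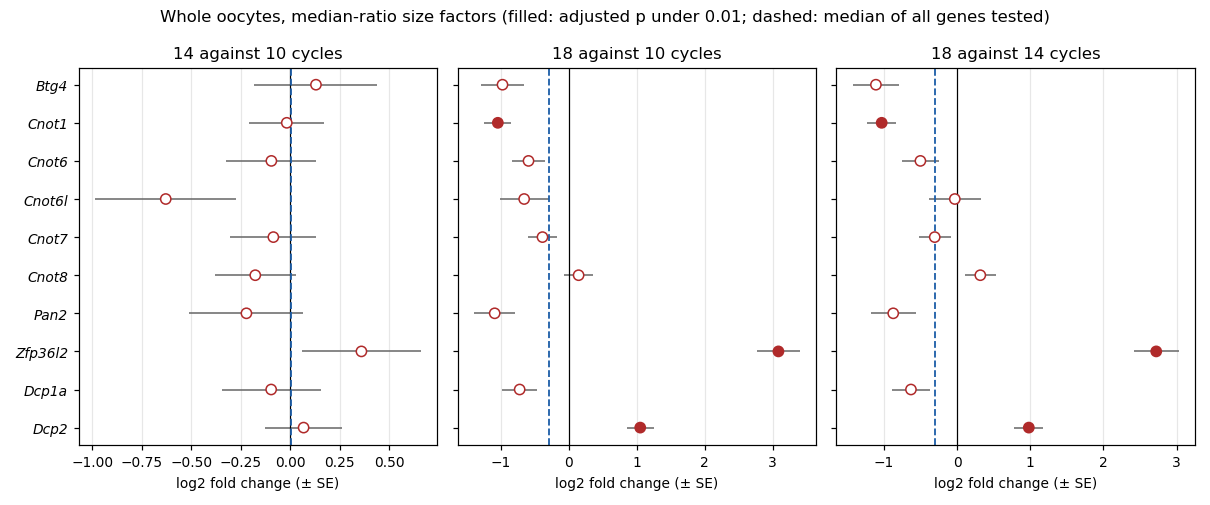
Log2 fold change with its standard error (horizontal axis, scale set per panel) of each member between whole oocytes at different cycle numbers; filled points had an adjusted p under 0.01 by edgeR and the dashed line is the median of all genes tested. No point is filled for 14 against 10 cycles, and Cnot1, Zfp36l2 and Dcp2 are filled in both comparisons with 18 cycles.

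The composition of the fractions was tested in the 8 libraries at 18 cycles, again with median-ratio size factors, over 14788 genes. The comparisons of 1/2, 1/4 and 1/8 share the 2 whole oocytes at 18 cycles. In 1/2, 0 of the 10 members were called by edgeR (0.115% of all genes) and 0 by DESeq2 (0.331% of all genes lower and 0.71% higher), while 1 had an unadjusted p under 0.05 (13.1% of all genes), Zfp36l2 at -1.59 (SE 0.41). In 1/4, 0 members were called by edgeR (0.467% of all genes) and 0 by DESeq2 (1.16% of all genes lower and 0.473% higher), while 1 had an unadjusted p under 0.05 (15.8% of all genes), Dcp2 at -0.58 (SE 0.28).

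In 1/8, Zfp36l2 was called lower, with 33.2 ± 2.71 normalized counts against 144 ± 10.3 in whole oocytes (mean ± SD of 2 libraries), for a log2 fold change of -2.13 (SE 0.42, adjusted p = 0.000761 by edgeR's quasi-likelihood test). This was 1 of 10 members, where 8.66% of all genes were called lower and 7.08% higher. Of the 8330 genes with at least 10 counts in every library, 14% were called lower and 12.1% higher. Without replicate 1 of 1/8, Zfp36l2 (-2.02) did not pass (6.74% of all genes lower), and without replicate 2 of the whole oocytes Btg4 (1.51) was also called (4.49% of all genes higher). In the full fit Cnot1 was at 0.89 (SE 0.31), Btg4 at 0.88 (SE 0.33), Cnot7 at 0.79 (SE 0.29), Dcp1a at 0.65 (SE 0.28) and Dcp2 at -0.72 (SE 0.28), with adjusted p = 0.0337, 0.0503, 0.0446, 0.0906 and 0.0629 by edgeR. Their 1/8 and whole-oocyte libraries did not overlap in normalized counts. Neither did those of Cnot6 (0.64, adjusted p = 0.194, edgeR) and Cnot8 (0.22, adjusted p = 0.574, edgeR). The share of all genes without overlap was not counted, so no overlap does not set these members apart. Against the whole oocytes at 10 cycles, Zfp36l2 in 1/8 was at 0.94 and was not called.

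Between 1/8 and 1/2, fractions of the same 2 oocytes that were fitted as separate samples, 0 of the 10 members were called by edgeR (5.94% of all genes) and 0 by DESeq2 (6.11% of all genes lower and 3.59% higher). At an unadjusted p under 0.05 there were 2 (29% of all genes), Pan2 at 0.85 (SE 0.35) and Cnot1 at 0.66 (SE 0.30).

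On the ERCC scale the question was how far each mRNA dropped with the amount of lysate, where dilution alone corresponds to log2 changes of -1, -2 and -3. Btg4 had 10397 and 13123 ERCC-normalized counts in the whole oocytes, 5202 and 3256 (1/2), 3005 and 1557 (1/4), and 692 and 823 (1/8) in the fractions. The groups followed the order of dilution without overlap, although a 1/2 and a 1/4 library came close (3256 and 3005). Dcp1a had 9670.0 and 9453, then 3119 and 2711, then 2012 and 1539, then 512 and 512, with replicates close together and no overlap between groups. Zfp36l2 had 931 and 605, then 67.8 and 60.1, then 126 and 61.0, then 5.65 and 5.77, so that 1/4 was not below 1/2.

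All 10 members were called lower in 1/2, where 52.0% of all genes were, by edgeR with ERCC size factors. All 10 were also called lower in 1/4 (69.7% of all genes) and in 1/8 (87.5% of all genes). Among the 8330 genes with at least 10 counts in every library, a set that holds all 10 members, the shares called lower were 85.5%, 99% and 100% in 1/2, 1/4 and 1/8. The members therefore did not stand apart from other well-counted genes in these calls. In 1/2 the log2 fold changes of the members lay between -3.59 (Zfp36l2) and -1.48 (Btg4), with -1.997 as the median of all genes. In 1/4 they lay between -3.29 (Dcp2) and -2.14 (Cnot1), with a median of all genes of -2.69. In 1/8 they lay between -7.07 (Zfp36l2, SE 0.66) and -3.96 (Btg4, SE 0.51), with a median of all genes of -4.92. In 1/8 2 members, Zfp36l2 and Dcp2 (-5.67, SE 0.55), were below that median and the other 8 were above it. The counts rest on the whole oocytes at 18 cycles, which had only 1611 and 1474 ERCC counts. Counts on genes per ERCC count were 1873 and 1158 there, 323 and 360 in whole oocytes at 10 cycles, and 439 and 344 in 1/2. The cause of this difference was not tested. Against the whole oocytes at 10 cycles 0 members were called in 1/2, where 2.13% of all genes were lower and 6.55% higher. The members then lay between -1.33 (Pan2) and 1.67 (Zfp36l2) in 1/2, so their place relative to the dilution depended on the reference. In 1/4 3 were lower and 1 higher (Zfp36l2), where 7.75% and 0.870% of all genes were, and in 1/8 10 were lower, where 74.3% of all genes were. Without replicate 1 of the whole oocytes Btg4 (-1.52), Cnot1 (-1.27), Cnot6 (-1.58), Cnot7 (-1.47) and Cnot8 (-1.45) did not pass in 1/2, where 21.1% of all genes were called lower. Without replicate 1 of 1/2 Cnot1 (-1.69) and Cnot6 (-1.97) did not pass (41.8% of all genes lower), and without replicate 2 of 1/2 those that did not were Btg4 (-1.21), Cnot1 (-2.00), Cnot6 (-1.98), Cnot7 (-1.72), Cnot8 (-1.67) and Dcp1a (-1.65), where 13.2% of all genes were called lower. Without replicate 2 of 1/4 Cnot1 (-1.85) did not pass in 1/4 (46.7% of all genes lower). In a fit of only the whole oocytes and 1/2, 4 of the 10 members were called lower, where 39.7% of all genes were, and Btg4 (-1.58), Cnot1 (-1.96), Cnot6 (-2.08), Cnot7 (-1.86), Cnot8 (-1.94) and Dcp1a (-1.84) did not pass.

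**Figure D3:**
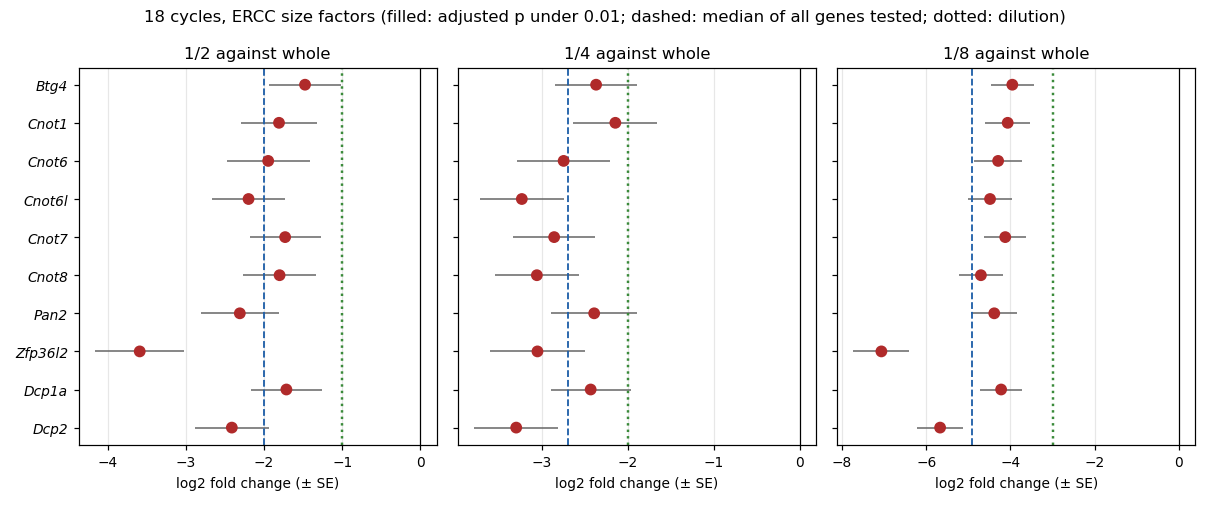
Log2 fold change with its standard error (horizontal axis, scale set per panel) of each member in 1/2, 1/4 and 1/8 of an oocyte against whole oocytes at 18 cycles, with ERCC size factors; filled points had an adjusted p under 0.01 by edgeR, the dashed line is the median of all genes tested and the dotted line the dilution. All points are filled and to the left of the dotted line, and Zfp36l2 is farthest left in 1/2 and 1/8. Their place relative to that line depended on the reference. Against whole oocytes at 10 cycles the 1/2 values lay between -1.33 (Pan2) and 1.67 (Zfp36l2).

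The rest of the pathway was described from a list of 49 genes that includes the members, namely 12 CCR4-NOT genes, 9 adaptors, 3 AU-rich element binding genes, 4 other deadenylases, 18 decapping genes and 3 uridylation genes. Outside the members it holds 39 genes, all of them tested. Between 18 and 10 cycles 5 of these 39 were lower (10.9% of all genes) and 8 higher (12.2% of all genes), with a median log2 fold change of -0.08 against -0.30 for all genes. The members had a median of -0.63. Among the CCR4-NOT genes outside the members, Cnot11 and Cnot3 were higher, and Cnot11, which with Cnot10 forms the module at the N-terminal end of CNOT1, had 229 and 259 CPM at 10 cycles and 756 and 1446 at 18 cycles. Its log2 fold change was 2.46 (SE 0.33, adjusted p = 0.000341 by edgeR).

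Noct, a circadian member of the deadenylase-like nucleases, had 297 and 278 CPM at 10 cycles and 775 and 985 at 18 cycles (log2 fold change 1.89, SE 0.24). Pabpn1l, the oocyte poly(A)-binding protein that acts with BTG4, had 580.0 and 613 CPM at 10 cycles and 63.0 and 109.6 at 18 cycles (log2 fold change -2.53, SE 0.29). Noct was thus higher at 18 cycles in both libraries, and Pabpn1l lower. Btg2, of the same family as Btg4, was also lower (-2.45, SE 0.37). Their adjusted p by edgeR were 0.000257, 0.000171 and 0.000688. Of the 9 adaptors, Btg4 among them, 2 were called lower (10.9% of all genes) and 1 higher (12.2% of all genes). The median log2 fold change of the adaptors was 0.55.

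Of the 7 genes of the LSM1-7 ring, which binds shortened poly(A) tails and promotes decapping, 4 were called higher (12.2% of all genes), 1 was lower (10.9% of all genes) and Lsm5 and Lsm7 were not called. Lsm1 rose by 2.14 (SE 0.33), Lsm2 by 2.19 (SE 0.26), Lsm4 by 1.83 (SE 0.28) and Lsm6 by 0.91 (SE 0.21) on the log2 scale, with adjusted p = 0.000731, 0.00019, 0.000745 and 0.00634 by edgeR. Lsm3 was at -1.44 (SE 0.23, adjusted p = 0.000813, edgeR). Patl2, an oocyte partner of that ring, was at -1.40 (SE 0.28, adjusted p = 0.00345, edgeR), and Xrn1, the exonuclease that degrades decapped mRNA, at -1.39 (SE 0.30). Without replicate 1 at 10 cycles Cnot11 (2.33), Lsm1 (2.22), Lsm4 (1.72) and Patl2 (-1.32) did not pass, and without replicate 2 at 10 cycles Lsm1 (2.05), Lsm3 (-1.28) and Patl2 (-1.49) did not. Xrn1 did not pass without replicate 1 (-1.54) or 2 (-1.24) at 10 cycles, nor without replicate 1 (-1.60) or 2 (-1.25) at 18 cycles, and Lsm6 did not either (0.72, 1.11, 0.93 and 0.89 in that order). In a fit of only the 2 groups compared, neither Xrn1 (-1.41) nor Lsm6 (0.89) passed. With ERCC size factors 26 of the 39 genes were higher and 0 lower, where 47.6% of all genes were higher, and Lsm3 (0.78), Patl2 (0.95) and Xrn1 (0.88) changed sign, while Pabpn1l (-0.40) and Btg2 (-0.22) did not pass.

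Between 1/8 and the whole oocytes at 18 cycles (median ratio), which share the latter with the cycle comparison, 6 of the 39 genes were lower (8.66% of all genes) and 2 higher (7.08% of all genes). Pabpn1l had 638 and 324 CPM in 1/8 and a log2 fold change of 2.28 (SE 0.37, adjusted p = 0.000152 by edgeR). Lsm3, with 137 and 187 CPM in 1/8, was at 2.26 (SE 0.33, adjusted p = 5.55e-05, edgeR). The 4 genes with the largest falls were Cnot11 (-2.04, SE 0.32), Lsm2 (-1.68, SE 0.30), Lsm4 (-1.67, SE 0.40) and Noct (-1.58, SE 0.32), with adjusted p = 0.000122, 0.000344, 0.00351 and 0.000927 by edgeR. Lsm4 did not pass without either whole oocyte (-1.83 and -1.54) or without replicate 2 of 1/8 (-1.34). Noct did not pass without replicate 2 of the whole oocytes (-1.34) or of 1/8 (-1.42). Against the whole oocytes at 10 cycles 0 of the 39 genes were called, as were 0% of all genes.

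The oocyte markers were compared in the same way. Between 18 and 10 cycles 8 of the 10 markers were called lower (10.9% of all genes), with a median log2 fold change of -1.49. In 1/8 against whole oocytes (median ratio) 6 of the 10 were called higher (7.08% of all genes), with a median of 1.24. Of the granulosa markers, Cyp19a1 and Kitl were called lower of 7 tested between 18 and 10 cycles (median -0.92), and Cyp19a1 higher of 5 tested in 1/8 (median -1.52). Bmp15 had 4271 and 3704 CPM at 10 cycles, 814 and 852 at 18 cycles, and 2529 and 2844 in 1/8. The part of these shifts in the members' values was not tested.

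The members also differ in base composition, and the change between 18 and 10 cycles varied with it over all genes. GC content of the longest transcript was lowest for Cnot6l (37.6%), Cnot7 (38.2%), Cnot6 (39.8%), Btg4 (41.3%) and Dcp2 (42.7%). It was 45.8% for Cnot1, 48.3% for Dcp1a, 48.5% for Cnot8, 51.2% for Pan2 and 54.8% for Zfp36l2. In 5 equal bins of GC content, from low to high, the median log2 fold change of all genes between 18 and 10 cycles was -1.07, -0.76, -0.41, -0.04 and 0.82. In the lowest bin 19.2% of genes were called lower and 4.37% higher, and in the highest 2.23% and 25.5%. In 1/8 against whole oocytes (median ratio) the medians ran the other way, at 0.68, 0.40, 0.09, -0.21 and -0.97. Btg4, Cnot6, Cnot6l, Cnot7 and Dcp2 belong to the lowest bin, and Zfp36l2 to the next to highest. Between 18 and 10 cycles Zfp36l2 lay 3.12 and Dcp2 2.12 above the median of the bin, and Cnot1 differed from that of its bin by -0.29. Of the 10 members 3 lay below the median of their bin (Cnot1, Pan2 and Dcp1a), against 7 below the median of all genes. The part of GC content in the members' values was not tested.

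By pattern over the 12 libraries, the 3 protein-coding genes nearest to Btg4 were Chmp3, Ccp110 and Bub1b. Nearness was the root mean square difference of log2(CPM + 0.5) after each gene was centred on its mean, over 4448 genes with at least 50 counts in every library. The differences were 0.176, 0.187 and 0.205. Bub1b, a spindle checkpoint kinase, had a mean of 1487 CPM at 10 cycles and 587 at 18 cycles. Of the members Dcp1a was nearest to Btg4, at 0.262 and rank 37, and Dcp2 farthest of those compared, at 0.822 and rank 2881.

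The last bases of the transcripts are shown because cytoplasmic polyadenylation elements there set the tail length of stored mRNA, and oligo(dT) capture reads the tail. The last 100 bases of 1 coding transcript per gene (the longest of those marked principal, where the untranslated end reached that length) were searched on the transcript strand for a first form of the element, TTTTAT, for a longer form of it, TTTTAAT, and for the polyadenylation signal, AATAAA. The first form was present in 13.9% of 19609 genes and in 5 of the 9 members that have such a window (Cnot8 has none). The longer form was present in 5.05% of genes and in 1 member, Dcp1a, and the signal in 64.5% of genes and in 6 of the 9 members. The lines below give the bases around these letters in 5 members, from GENCODE release 21 (GRCm38), 5′ to 3′ along the transcript, with the searched letters in capitals. They are chr9:51119807-51119836 (plus strand) for Btg4, chr8:95719494-95719523 (minus strand) for Cnot1, chr8:40493036-40493057 (minus strand) for Cnot7, chr10:128321334-128321353 (plus strand) for Pan2 and chr14:30527019-30527048 (plus strand) for Dcp1a.
Btg4: ctTTTTATgtctttttaaaagtttgattta
Cnot1: gaTTTTATatatgtgagtacactgatgctg
Cnot7: caTTTTATatcAATAAAaatac
Pan2: atTTTTATctcattagaaaa
Dcp1a: ttTTTTAATAAAatttcaaaaccaagtttt
In Cnot7 the element lies just before the signal, in Pan2, which holds 3 copies of the first form, the copy shown lies after it (18 and 29 bases from the end), and in Dcp1a the element and the signal overlap. The Btg4 and Cnot1 windows hold no such signal. A match describes the annotated sequence only.

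Some members share sequence with other annotated genes. Exonic bases that overlap another gene made up 4.24% of Cnot7, 2.97% of Zfp36l2 and 0.769% of Cnot1, in each case a gene on the opposite strand. The library kit does not mark strand, and the methods name default counting settings, which for HTSeq count by strand. Whether these applied to the deposited counts was not settled, so the values of genes that overlap there are uncertain. Of the 50-base words of Cnot8, 7.82% also occur in another gene, and of those of Cnot1 4.76%, which makes their counts less certain than those of Btg4 and Cnot6l, where both measures were 0.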

How the data were processed

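Per the labels, single GV oocytes were lysed, poly(A) RNA was captured on oligo(dT) beads, and cDNA was amplified and made into Nextera libraries. The submitters' processing notes name cutadapt 2.5, STAR 2.7.2a, HTSeq 0.9.1 and mm10. The deposited count files hold unnormalized values for each gene and ERCC molecule. Reads on no feature (6.90% to 10.8%) were left out. CPM was computed over counts on genes. Genes reaching 5 counts in 2 or more libraries of a fit were tested with edgeR 4.0.16 (quasi-likelihood test) in R 4.3.3, with group as the only term, Benjamini-Hochberg adjustment over all genes tested and a threshold of 0.01. Size factors were median ratios over all genes, or over ERCC molecules passing the same filter. In an earlier run the median ratio was taken over the genes that passed the filter; it was replaced by all genes after its results were seen and is kept as an alternative; the methods give the filter but not the genes behind the size factors. The fits were run on simulated data with a fixed spread, independent libraries and no dilution, GC trend or shift of the ERCC share. That run does not show how the fits behave where these are present. Alternatives were DESeq2 1.42.0, TMM factors, other filters, a replicate block, only the groups compared, each library left out, a reference at 10 cycles, other ERCC scalings, levels per kb of the longest transcript, and CPM with reads on no feature added. Members and lists were chosen with earlier results of these data known. From the pathway list the text names up to 4 genes per direction with the largest changes past the threshold and a mean of at least 50 normalized counts, with Cnot3, Xrn1, Lsm4 and Lsm6 added after their values were seen. P-values rest on a spread estimated over all groups of a fit, with 2 libraries a group, and not on the 2 groups compared alone. They treat libraries as independent, although fractions share oocytes.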

Additional observations from a re-analysis of the deposited data

How the results depend on the processing

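Across the alternatives, 1076 of 1160 log2 fold changes of the members kept their direction and their side of the threshold, or passed it under neither setting; 42 no longer passed, 24 passed in addition and 18 changed direction while passing under at least 1 of the settings. Between 18 and 10 cycles (3 members called) DESeq2 called 5 (13.9% of all genes lower and 15.5% higher), no filter 6 (9.22% and 9.33%), the replicate block 5 (12.1% and 12.8%) and leaving out 1 library between 1 and 7 (4.23% to 11.2% and 5.37% to 12%). Between 18 and 14 cycles (3 called) no filter gave 5 (9.35% and 9.47%) and leaving out 1 library between 1 and 6 (5.34% to 10.8% and 5.68% to 11.8%). ERCC size factors, chosen after seeing the data, gave 7 and 8, all higher (47.6% and 47.9% of all genes). With them the called log2 fold changes that changed direction were, against 10 cycles, Cnot1 1.22, Cnot6 1.61, Cnot6l 1.39, Cnot7 1.79, Dcp1a 1.43, Lsm3 0.78, Patl2 0.95 and Xrn1 0.88, and, against 14 cycles, Cnot1 1.24, Cnot6 1.74, Cnot6l 2.06, Cnot7 1.90, Pan2 1.28 and Dcp1a 1.54; Btg4 (1.11 and 1.01) and, against 10 cycles, Pan2 (1.04) also changed sign but passed under neither setting. Median ratios over filtered genes, used first and then replaced after seeing the data, left each count of members called as reported. With the whole oocytes at 10 cycles as the reference, median ratio, 2 members were called in 1/2 and 2 in 1/4 (0 reported), in each case 1 lower and 1 higher, and 0 in 1/8 (1 reported). Of all genes 6.89% were lower and 9.3% higher in 1/2, 4.17% and 5.82% in 1/4, and 0% in 1/8. With that reference, of the values called under either setting, Zfp36l2 changed direction to 1.51, 2.72 and 0.94; in 1/8 so did Cnot11 (0.40), Pabpn1l (-0.25), Noct (0.30), Lsm2 (0.50) and Lsm4 (0.16). With ERCC and that reference 0 were called in 1/2 (2.13% of all genes lower and 6.55% higher) and 4 in 1/4 (7.75% and 0.87%; 10 reported in each), and Cnot8 (0.48), Zfp36l2 (1.67) and Dcp2 (0.80) changed direction in 1/2 and Zfp36l2 (2.11) in 1/4. Fitting only the 2 groups compared gave 4 in 1/2 with ERCC (39.7% of all genes lower). Leaving out 1 library gave between 0 and 2 in 1/8 with median ratio (4.67% to 6.74% of all genes lower and 1.98% to 5.2% higher) and between 4 and 10 in 1/2 with ERCC (13.2% to 60.4% lower); a library left alone in its group was assumed to vary like the others. Adding reads on no feature to the CPM total moved 29 group means of the members by more than 1 SD and 31 by less. The deviations of same-numbered libraries had correlations between -0.147 and 0.137; which fraction libraries share an oocyte is not stated. Levels per kb of the longest transcript, added after seeing the data, put Pan2 (34.6) above Dcp2 (22.8). Depth limits Zfp36l2 most, with 18 counts in replicate 2 of 1/8. The cause was not tested.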
